A study of Mus musculus with 16 samples.

Results

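Splenic CD8+ T cells of mice that had carried an accepted kidney allograft for 1 week were compared with splenic CD8+ T cells of mice without a transplant. Members were chosen cell by cell from the deposited CD8 matrices of both conditions: a cell was kept with at least 1 UMI (a counted molecule) of Cd8a or Cd8b1, the genes of the CD8 coreceptor, and no UMI of Cd4, Cd79a or Lyz2, which mark helper T cells, B cells, and myeloid cells. This rule kept 8317 of 16594 cells, 4069 of 11913 at 1 week and 4248 of 4681 in naive spleen, from series-wide CD8 matrices of 72639 cells. UMIs were summed per library tag of the barcodes, which gave 3 libraries at 1 week (1264, 1367, and 1438 cells) and 5 naive libraries (683 to 1062 cells).

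The study followed male mice in which DBA/2J kidneys are accepted by C57BL/6J (B6) recipients without immunosuppression. At 1 week, spleens came from B6 recipients of a life-supporting DBA/2J kidney, whose own kidneys had been removed. The naive spleens came from wild-type B6 mice that received no graft. In both groups, viable CD45+ leukocytes were sorted and sequenced from the 3′ end of transcripts in droplets, and the CD8 matrices are named for CD8 cells by the authors' cell type calls. The 1-week matrix may hold other cells, since fewer of its cells than of the naive matrix had a CD8 UMI (values below), so CD8+ T cells here means cells kept by the rule. Wild-type C57BL/6J is the recorded strain and genotype of both groups, and no marker in the data tells graft-reactive cells from bystanders. How many mice gave the naive libraries is not stated in the sources used here, so p-values measure the spread between libraries, which may be partly technical.

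As background, a naive CD8+ T cell circulates through spleen and lymph node under transcription factors such as TCF-1 (Tcf7), LEF1, KLF2, and SATB1, and lives on IL-7. When its receptor meets a foreign peptide on MHC class I, as on cells of an allograft, it divides and takes on effector functions. Effector cells store granzymes and perforin, secrete IFN-γ and chemokines, and raise surface and cytoskeletal genes that memory cells keep, among them integrin β1 and the small calcium-binding protein S100A4. Repeated stimulation brings inhibitory receptors such as PD-1 (Pdcd1) and LAG-3.

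The depth and composition of the libraries differed between the groups. Summed UMIs per library ranged from 2941512 to 5589330 at 1 week and from 3289474 to 4467803 in naive spleen, with a median per cell of 1991 to 3476.5 and 3708.5 to 4974 UMIs. Mitochondrial genes took 5.42% to 6.07% of UMIs at 1 week and 3.65% to 4.64% in naive spleen. The rule kept 34.5% ± 5.04 (SD, n = 3) of the 1-week matrix and 90.8% ± 1.65 (n = 5) of the naive matrix. Of the cells in the 1-week matrix, 44.2% had a UMI of the CD8 genes, 18.7% of Cd79a, and 13.3% of Cd4, against 96.1%, 3.40%, and 1.73% in the naive matrix. Among kept cells, thinned to 1000 UMIs each, a UMI of Cd3d, Cd3e, Cd3g or Trac, which define T cells, was found in 91.7% at 1 week and 86.1% in naive spleen, and Cd8b1 in 65.8% and 65.0%. Cd8a was found in fewer kept cells at 1 week, 25.2% (21.5% to 27.6% per library) against 32.6% (30.3% to 37.3%), without overlap. Igkc, an immunoglobulin gene, was found in 27.0% of kept cells at 1 week and in 5.25% of naive ones. The summed level of 17 B cell markers was 623 to 1102 CPM at 1 week against 376 to 566, of 15 myeloid markers 266 to 298 against 141 to 210.0, of 7 NK cell markers 30.6 to 44.2 against 4.86 to 10.7, of 7 helper and regulatory T cell markers 127 to 169 against 56.5 to 78.3, and of 7 γδ T cell markers 19.97 to 32.4 against 4.86 to 13.4. The T cell and CD8 markers were at 3601 to 4235 and 3346 to 3670.1 CPM. No pair of libraries shared more than 2 barcodes.

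Of 9741 genes tested by edgeR, 5584 (57.3%) differed at an adjusted p under 0.05, 1760 (18.1%) higher and 3824 (39.3%) lower at 1 week. With so many genes called, the count of any gene list below has to be read against these shares. The median log2 difference of all genes was -0.24 with plain library totals and -0.02 with TMM factors (a scaling to the typical gene), under which 50.7% of genes differed, 2584 higher (26.5%) and 2350 lower (24.1%). The shift followed intron length: it was 0.14 in the tenth of genes with the shortest introns and -0.52 in the tenth with the longest. A log2 difference near -0.24 is therefore no more than that of the median gene. Against recipient spleen at 3 weeks, which does not share libraries with either group, 48.3% of 8991 genes differed at 1 week, and at 3 weeks 9.95% of 9142 genes differed from the same naive libraries.

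Cells with genes of division made up a larger share of every 1-week library than of any naive library. A cell was counted as dividing with UMIs of at least 2 of Mki67, Top2a, Pclaf, Stmn1, and Birc5 after thinning to 1000 UMIs. This held for 2.30, 1.41, and 5.85% of cells in the 3 libraries at 1 week (3.19 ± 2.35%, SD, n = 3, 132 of 4044 cells) and for 0 of 4248 naive cells. That count allows up to 0.0706% of naive cells with such UMIs at this depth and does not limit the share of dividing cells. Without thinning, 21 naive cells met the list, 0.272% to 0.815% per library, against 1.98% to 10.2% at 1 week, and with 1 gene enough at 1000 UMIs 78 did. The third library stood above the other two, and without it the mean share was 1.86%. Cells with at least 2 of 8 cytotoxic genes (Gzma, Gzmb, Gzmk, Prf1, Ifng, Nkg7, Fasl, Ccl4) made up 8.02, 11.4, and 9.48% at 1 week against 2.21 to 4.07% of naive cells. Cells with 2 of 6 memory genes (Ccl5, Cxcr3, Il2rb, Eomes, Ly6c2, Id2) made up 17.2, 30.5, and 28.4% against 9.08 to 13.8%. Cells with 2 of 6 naive genes (Lef1, Tcf7, Ccr7, Satb1, Dapl1, Igfbp4) were fewer, at 41.5, 35.7, and 32.5% against 50.2 to 53.3%. For each of these 4 lists the groups did not overlap, and the exact permutation test over libraries (two-sided) gave p = 0.0357, the smallest that 3 against 5 libraries allow, or 0.0429 adjusted over the 6 lists.

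The interferon list did not pass this test. Cells with 2 of 8 type I interferon response genes made up 4.51 ± 1.73% at 1 week and 4.40 ± 0.911% in naive spleen (exact permutation p = 0.893). Cells with 2 of 5 checkpoint genes (Pdcd1, Lag3, Tox, Havcr2, Tigit) were rare in both, 8 of 4044 cells at 1 week and 1 of 4248 naive cells. The checkpoint shares did not overlap between the groups (exact permutation p = 0.0357, 0.0429 adjusted), and without thinning they did not overlap either, but the difference turned to the other side when 1 gene of the list was enough. In B cells of naive spleen (26628 cells, median 2732 UMIs), the lists were met by 0.376% (cytotoxic), 0.323% (memory), 2.497% (naive), 0.496% (dividing), and 0% (checkpoint) of cells. With 1 gene enough, 26.7% of these B cells met the naive list and 1.14% the cytotoxic list. The value of the naive list is therefore not read as a background. The 1-week matrix held only 33 cells with B cell markers and no UMI of the CD3, CD8 or CD4 genes (median 2948 UMIs). Of these, 2 met the memory list (6.06%, exact 95% interval 0.743% to 20.2%), 8 the naive list (24.2%, 11.1% to 42.3%), and 0 the cytotoxic list (0% to 10.6%). The mean cytotoxic share at 1 week (9.64%) lay within that last interval. With 1 gene enough, 6 of the 33 (18.2%) met the cytotoxic list, against a mean of 57.4% of kept 1-week cells. The dividing list was met by 1 of the 33 (3.03%, 0.0767% to 15.8%), an interval that holds the mean dividing share of 3.19%. Of single list genes, Tcf7 was found in 7 of the 33 (21.2%), Lef1 and Ccl5 in 5 each (15.2%), and Nkg7 in 3 (9.09%). In the naive-spleen B cells these 4 genes were found in 0.203%, 0.864%, 1.01%, and 0.458%. Whether all 33 are B cells was not tested. Without thinning, the shares were 20.3% and 19.7% for the cytotoxic list and 44.8% and 35.2% for the memory list, and neither difference passed the test. The other unthinned mean shares were 5.02% and 0.477% (dividing), 1.85% and 0.223% (checkpoint), 74.5% and 95.7% (naive), and 17.8% and 27.3% (interferon), and the naive cells had more UMIs each.

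**Figure D1:**
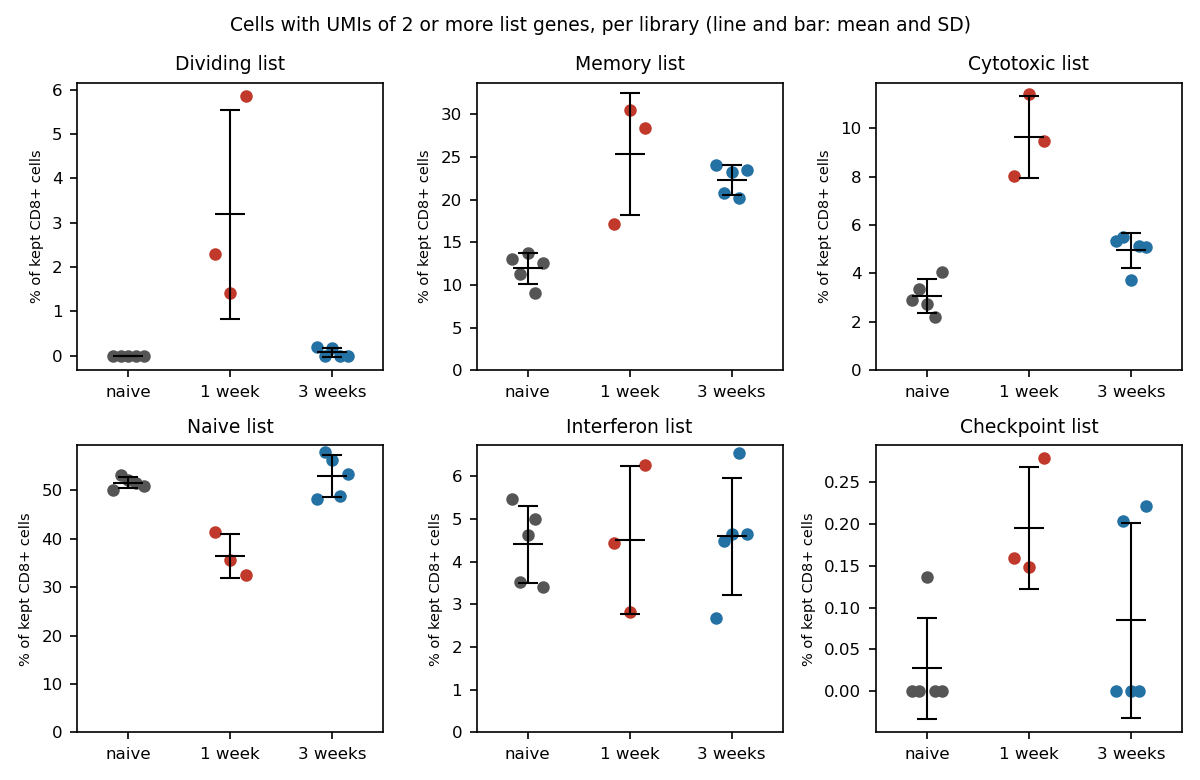
Share of kept CD8+ cells that met each list of genes (vertical axis, percent of cells thinned to 1000 UMIs), with 1 point per library and the mean ± SD for naive spleen and for recipient spleen at 1 and 3 weeks. Dividing cells were at 3.19 ± 2.35% at 1 week and 0% in naive spleen, cytotoxic and memory shares were higher at 1 week, the naive share was lower, and the interferon shares overlapped.

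Genes of the cell cycle were higher at 1 week by large factors. Of 22 proliferation genes tested, 18 were higher at 1 week and 1 lower, beside 18.1% and 39.3% of all genes (20 and 0 with TMM factors), with a median log2 difference of 3.35 against -0.24 for all genes. A gene was tested with at least 2.70 CPM in 3 libraries, and 9 of the 22 (Mki67, Pclaf, Birc5, Rrm2, Cdk1, Ccnb2, Ccna2, Nusap1, Hist1h1b) reached this through the 1-week libraries alone. Genes that pass so must be at a higher level there, so this count and median are a description and not support. Of the 13 that reached it in each group alone, 9 were higher and 1 lower, beside 18% and 40.5% of all 8639 such genes. Hist1h1b, a linker histone made in S phase (chr13:21779883-21780625, mm10), was at 168, 173, and 548 CPM in the 1-week libraries and at 1.91, 0.912, 0.534, 1.57, and 1.68 CPM in the naive ones (log2 difference 7.77 ± 0.44, SE, edgeR adjusted p = 9.19e-11). Birc5 (survivin, of the chromosomal passenger complex) was at 46.8, 29.6, and 118 CPM against 0.279 to 0.912, and the S/G2 cyclin gene Ccna2 at 12.6, 6.46, and 25.2 against 0 to 0.477. Nusap1, a spindle protein gene, was at 15.3, 10.9, and 42.6 CPM against 0 to 0.801. Stmn1, whose product destabilizes microtubules, was at 122, 90.8, and 241 CPM against 9.42 to 18.8 (log2 difference 3.54 ± 0.24, edgeR adjusted p = 8.2e-10). In each of these genes, the third 1-week library was the highest and the groups did not overlap. Without that library, the log2 difference was 6.95 for Hist1h1b, 5.88 for Birc5, 5.34 for Ccna2, and 5.06 for Nusap1. The histone gene Hist1h2ap was at 64.0, 81.3, and 400.2 CPM against 18.2 to 34.3 (log2 difference 3.06 ± 0.41), or 1.67 without the third library. In another fit, the cells that met the dividing list without thinning (210 at 1 week and 21 naive) were left out. Stmn1 then stayed higher by 0.89 and Hist1h1b by 3.58, and Hist1h2ap did not pass the test (-0.26, edgeR adjusted p = 0.347).

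Promoters of cell cycle genes are known for CCAAT boxes and for the cell cycle homology region, a short element read by repressor complexes in resting cells. To show what 3 of these genes, Top2a, Cdk1, and Ccnb2, carry, the 120 bases before their RefSeq start (GRCm38.p6, gene strand, here minus, 5′ to 3′) are given, with both motifs in capitals. The CCAAT box reads ATTGG on the other strand. The second motif was searched as TTTGAA, which on the other strand reads TTCAAA, and also in the form TTCGAA, the same on both strands. Their positions are chr11:99024190-99024309, chr10:69352913-69353032, and chr9:70421555-70421674.
Top2a: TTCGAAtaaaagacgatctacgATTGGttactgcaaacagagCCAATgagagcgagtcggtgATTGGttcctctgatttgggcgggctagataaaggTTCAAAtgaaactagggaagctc
Cdk1: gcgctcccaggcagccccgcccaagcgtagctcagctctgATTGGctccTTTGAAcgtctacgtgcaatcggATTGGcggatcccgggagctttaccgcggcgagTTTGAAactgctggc
Ccnb2: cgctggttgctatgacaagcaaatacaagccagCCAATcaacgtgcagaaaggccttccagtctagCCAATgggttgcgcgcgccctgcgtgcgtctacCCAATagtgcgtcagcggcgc
Top2a and Ccnb2 each held 3 CCAAT boxes and Cdk1 held 2. The second motif was found 2 times each in Top2a and Cdk1 and 0 times in Ccnb2. In the same window, Birc5 and Nusap1 held neither motif, and Mki67 held 0 CCAAT boxes. Top2a, the topoisomerase that untangles replicated chromosomes, was at 55.0, 35.4, and 113 CPM at 1 week and 7.87, 3.04, 5.61, 6.49, and 3.07 CPM in naive spleen. Cdk1, the mitotic kinase, was at 9.30, 10.2, and 33.5 CPM against 0.267 to 0.912, and its partner cyclin gene Ccnb2 at 14.5, 11.9, and 41.3 against 0 to 2.01. Of the 17 listed proliferation genes with a promoter in the RefSeq table, 12 (70.6%) held CCAAT on either strand within these 120 bases, beside 21.3% of 32851 promoters, and 9 (52.9%) held 2 or more, beside 4.60%. The second motif was found in 4 of 17 (23.5%) and in 7.59% of all. These matches are descriptions of sequence and were not tested.

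Effector genes were found in a larger share of dividing than of other cells. Of the 132 dividing cells, a UMI of Gzmb was found in 28.8%, of Gzma in 23.5%, and of Ifng in 10.6%. Of the other 3912 cells at the same depth, the shares were 2.28%, 2.15%, and 2.28%. Of the 33 cells with B cell markers in the 1-week matrix, which may not all be B cells, Gzmb was found in 0 (exact interval 0% to 10.6%). Gzma was found in 1 (3.03%, 0.0767% to 15.8%) and Ifng in 2 (6.06%, 0.743% to 20.2%). The Ifng share of dividing cells lay within this background interval, and their Gzmb and Gzma shares lay above theirs. The shares of the other cells lay within these intervals. The cytotoxic list was met by 41.4%, 63.2%, and 38.1% of dividing cells in the 3 libraries and by 7.24%, 10.7%, and 7.70% of the others, so the order was the same in each library. Lgals1, S100a6, S100a4, and Lgals3 were found in 83.3%, 72.7%, 55.3%, and 53.0% of dividing cells and in 23.6%, 18.6%, 11.6%, and 9.36% of the rest. Naive genes ran the other way, with Il7r in 9.85% against 30.6% and Lef1 in 6.06% against 28.0%. Klf2 differed less, at 44.8 to 52.6% per library against 54.5 to 63.3%. The T cell genes Cd3d, Cd3e, Cd3g or Trac were found in 91.7% of both dividing and other cells. Foxp3, the regulatory T cell factor, was found in 4 of 132 dividing cells (3.03%) and in 7 of the 3912 others (0.179%). Tyrobp or Fcer1g, of NK and myeloid cells, were found in 0 dividing cells and in 2.04% of the others. The B cell genes Igkc, Ighm or Cd74 were found in 35.6% and 44.9%.

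**Figure D2:**
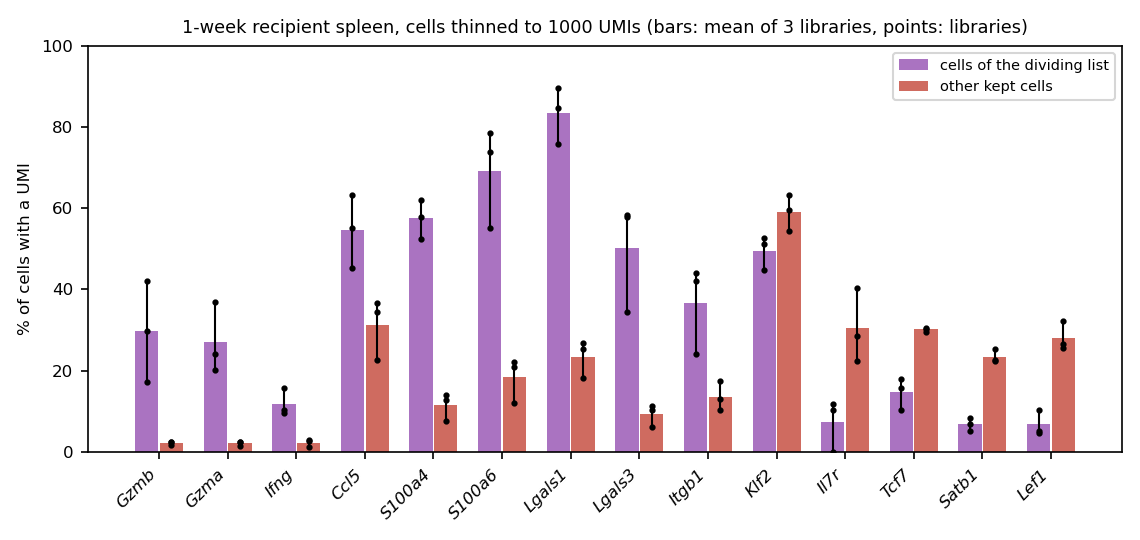
Percent of cells with a UMI of each gene (after thinning to 1000 UMIs) among dividing and other CD8+ cells of 1-week recipient spleen. Bars are the mean of the 3 libraries and points the libraries. Granzyme, S100, and galectin genes were more frequent among the dividing cells, and Tcf7, Lef1, and Il7r less frequent. The mean for S100a6 was 69.1% of dividing and 18.4% of other cells, or 72.7% and 18.6% with the cells of the 3 libraries pooled.

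The higher genes averaging at least 50 CPM that are not of the cell cycle included galectin, S100, granzyme A, and integrin β1 genes. Lgals3 (galectin-3, a carbohydrate-binding protein, chr14:47367751-47386160) was at 146, 242, and 359.8 CPM in the 1-week libraries and at 1.67, 1.22, 2.40, 1.12, and 3.07 CPM in naive spleen (log2 difference 7.05 ± 0.29, edgeR adjusted p = 1.74e-12). It passed the count filter through the 1-week libraries alone, which set its direction. S100a4 (chr3:90603771-90606045) was at 316, 480.0, and 616 CPM against 4.53, 12.5, 12.02, 10.7, and 20.4 (log2 difference 5.32 ± 0.22, edgeR adjusted p = 1.74e-12). In both genes the groups were far apart, with the third 1-week library the highest. S100a6, its close neighbor on the chromosome (chr3:90612882-90624181), was at 390.1, 651, and 1188 CPM against 40.5, 33.4, 48.6, 34.5, and 57.0 (log2 difference 4.13 ± 0.24). Lgals1 (galectin-1) was at 419, 545, and 1068 CPM against 121, 129, 139, 102, and 145 (log2 difference 2.42 ± 0.19). As for Lgals3 and S100a4, the third 1-week library was the highest and the first the lowest. Itgb1, the β1 chain of adhesion receptors for matrix and VCAM-1, was at 201, 277, and 263 CPM against 40.3, 51.7, 37.1, 56.2, and 63.4 (log2 difference 2.31 ± 0.13, edgeR adjusted p = 9.19e-11). At 3 weeks, S100a4 was at 22.2 to 45.3 CPM and Lgals3 at 4.02 to 13.1 CPM, between the other groups. Of the 12 higher genes named by the rule, 11 kept their call in each of the 22 alternatives in which they were tested, the exception being Hist1h2ap.

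Lars2, a mitochondrial leucyl-tRNA synthetase gene, rose by a log2 difference of 2.21 ± 0.14, and Gm42418 (chr17:39846958-39848788), which lies in a ribosomal RNA repeat, by 2.68 ± 0.16. Gm26917 (chr17:39843013-39846341), from the same locus, had a log2 difference of -1.68. Whether reads of repeats were assigned rightly between these genes was not tested. Leaving Gm42418 out of the totals kept the count of higher genes within 1.5 times of the main one.

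**Figure D3:**
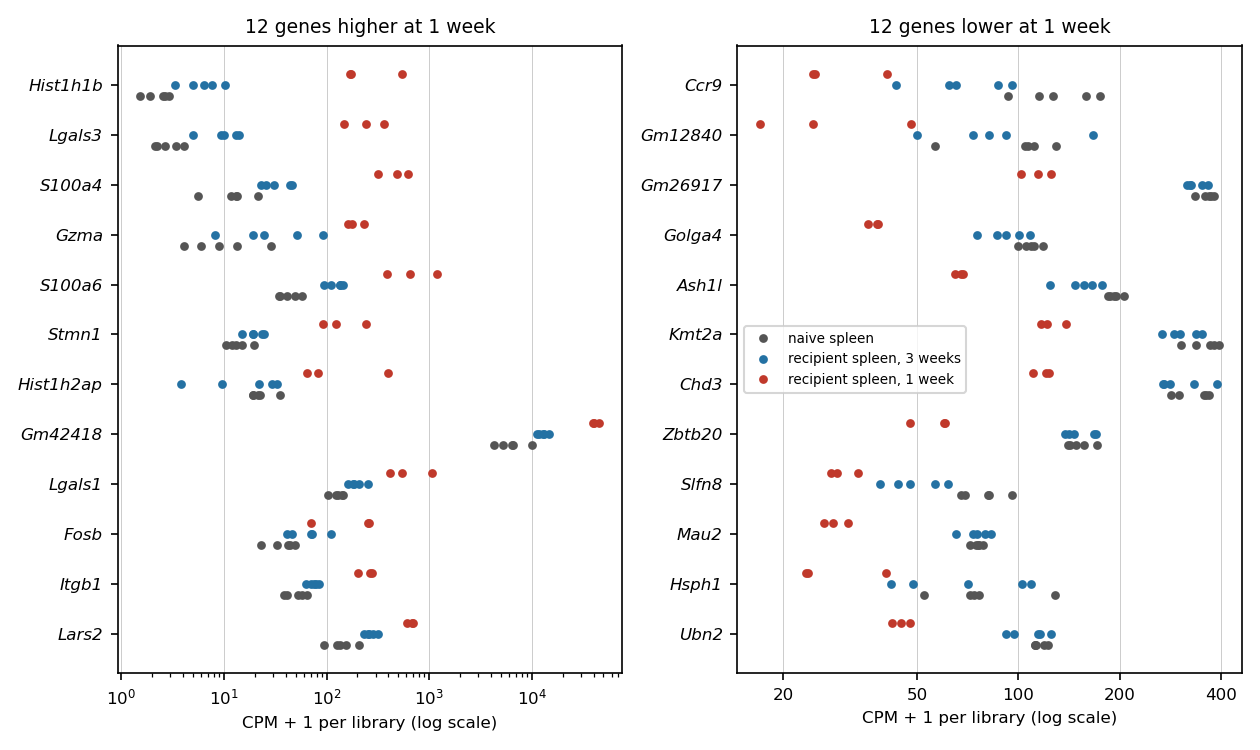
The 12 genes with the highest (left) and the 12 with the lowest (right) log2 difference between 1-week and naive spleen among those that passed the test, had a mean of at least 50 CPM, and did not overlap. The horizontal axis is CPM plus 1 on a log scale and each point is 1 library of naive, 3-week, or 1-week spleen. The 1-week points lie apart from the naive ones for all 24 genes, and the 3-week points lie on the naive side of them for most genes.

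Most effector genes tested were higher at 1 week, and perforin was lower. Of 18 effector genes tested, 13 were higher and 1 lower (14 and 1 with TMM factors), beside 18.1% and 39.3% of all genes, and their median log2 difference was 1.24. Of these, 6 (Gzmb, Gzmk, Ifng, Fasl, Ccl3, Cx3cr1) passed the count filter through the 1-week libraries alone, which set their direction, and of the 11 that passed in each group alone 8 were higher and 1 lower. Gzma, which encodes a granule protease, was at 162, 178, and 229 CPM against 3.10, 28.0, 8.01, 4.92, and 12.3 (log2 difference 4.17 ± 0.28, edgeR adjusted p = 7.25e-10), and the log2 difference was 4.79 without the highest naive library. Gzmb was at 37.5, 48.6, and 109.9 CPM against 1.19, 1.22, 4.27, 1.34, and 2.23 (log2 difference 5.04 ± 0.36, edgeR adjusted p = 1.81e-09), and 4.38 without the third 1-week library. Ifng was at 28.7, 36.0, and 25.05 CPM against 1.43, 3.95, 1.87, 2.24, and 3.91 (log2 difference 3.48 ± 0.22). Ccl3, a chemokine gene, was low but separate, at 6.57, 12.2, and 7.87 CPM against 0.238 to 0.838. Prf1 (perforin), by contrast, was at 32.3, 41.1, and 33.1 CPM against 56.7, 51.7, 48.9, 52.6, and 66.7 (log2 difference -0.66 ± 0.11, edgeR adjusted p = 6.91e-05), each 1-week library below each naive one. Among cells of the memory list alone, the log2 difference of Prf1 was -1.12 (edgeR adjusted p = 0.00644). The NK and γδ T cell markers given above moved in the same direction as the granzymes, and their part in these differences was not tested.

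Memory genes showed the same direction. Of 20 listed, 18 were higher and 1, Eomes, lower, beside 18.1% and 39.3% of all genes, with a median log2 difference of 0.99. With TMM factors, 19 were higher and 0 lower. Beside S100a4, S100a6, and Lgals1, the leading member was Klrc1 (NKG2A, an inhibitory receptor for nonclassical MHC), at 17.0, 29.9, and 35.8 CPM against 3.58, 4.26, 2.14, 2.69, and 5.31. Il2rb, the IL-2 and IL-15 receptor β chain, overlapped between the groups at 109.7, 163, and 191 against 115, 90.0, 101, 85.5, and 123 CPM (log2 difference 0.60 ± 0.14, edgeR adjusted p = 0.000966). Eomes, a T-box factor of memory cells, was at 33.6, 41.5, and 32.7 CPM against 44.96 to 54.8 (log2 difference -0.45 ± 0.10).

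Since the share of memory-list cells differed, genes were also compared within cells of like class. Nondividing cells that met the memory list numbered 983 at 1 week and 509 in naive spleen, and those that met the naive list but neither of the others 1250 and 2002. S100a4, S100a6, Lgals1, Lgals3, and Itgb1 were not used to define either class. In the memory class, S100a4 was found in 22.3 to 29.2% of cells per library at 1 week and 2.16 to 5.26% in naive spleen. For Lgals3 the ranges were 13.0 to 20.3% and 0 to 2.60%, and for Itgb1 the medians were 29.7% and 14.9%. In the memory class, Tyrobp or Fcer1g were found in 4.17% of cells at 1 week and 0.393% in naive spleen, and Ncr1 or Klrb1c, of NK cells, in 1.42% and 0.393%, and their part in the class difference was not tested. In the naive class of the same 1-week libraries, S100a4 was found in 0.849 to 3.77% and Lgals3 in 1.49 to 4.20%. In the 33 cells with B cell markers of the 1-week matrix, S100a6 was found in 7 (21.2%), S100a4 and Itgb1 in 4 each (12.1%), and Lgals1 and Lgals3 in 1 each (3.03%). This sets only a rough background, since these may not all be B cells. Among all nondividing cells at 1 week, the shares of S100a6 (18.6%) and S100a4 (11.6%) were not above that background, and that of Itgb1 (13.7%) lay within its counting interval (3.40% to 28.2%). In the 1-week memory class, the pooled shares of S100a4 (26.1%) and Itgb1 (25.6%) also lay within that interval, which is the same for both genes. Those of S100a6 (39.8%), Lgals1 (41.2%), and Lgals3 (17.5%) lay above theirs, whose upper ends were 38.9%, 15.8%, and 15.8%. Within the same libraries, S100a4 and Lgals3 were more frequent in the memory class than in the naive class. Fitted over the memory class alone, 38.1% of 1770 genes differed, 310 higher (17.5%) and 365 lower (20.6%), and over the naive class alone 36% of 4587, 398 higher (8.68%) and 1255 lower (27.4%).

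**Figure D4:**
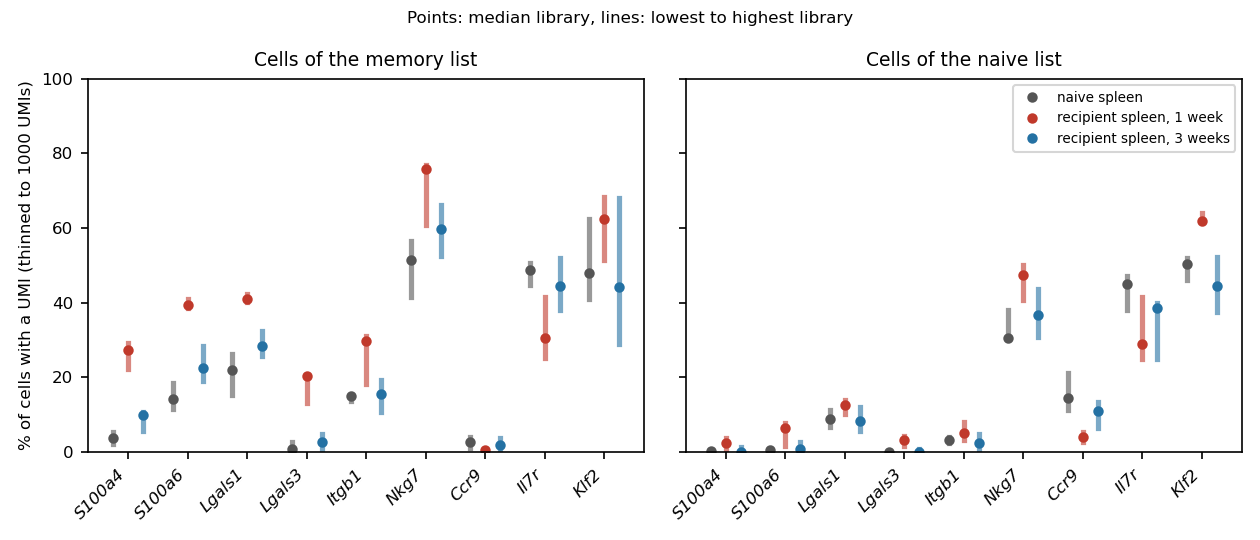
Percent of thinned cells with a UMI of each gene in the memory class (left) and the naive class (right), for naive, 1-week, and 3-week spleen. Points are the median library and lines run from the lowest to the highest library. In the memory class, Lgals3 had a median of 20.3% at 1 week and 0.719% in naive spleen, and in the naive class Ccr9 had 3.94% and 14.4%.

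With plain library totals, naive genes were mostly lower. Of 16 listed, 12 were lower and 1 higher, beside 39.3% and 18.1% of all genes, and 8 and 1 with TMM factors. Actn1 (α-actinin 1) was at 98.8, 97.6, and 93.0 CPM against 185, 217, 202, 201, and 203 (log2 difference -1.07 ± 0.08, edgeR adjusted p = 2.43e-09). Satb1, a chromatin organizer, was at 267, 258, and 263 CPM against 505 to 562 (log2 difference -1.02 ± 0.07). Il7r was at 294, 345, and 495 CPM against 782, 663, 767, 665, and 696 (log2 difference -0.91 ± 0.12), and Foxp1, a quiescence factor gene, at 263, 289, and 205 against 407 to 475. The 1-week libraries lay below all naive libraries in these 4 genes. Tcf7 had a log2 difference of -0.21, no more than the median gene, and of 0.00 with TMM factors. Lef1 had one of -0.36 with overlapping groups and Ccr7 one of -0.40, and neither passed the test with TMM factors. Lef1 reversed to 0.17 when the shift with intron length was taken out. Klf2, a factor that keeps lymphocytes in circulation, was the exception, at 1081, 961, and 836 CPM against 580.3, 676, 664, 724, and 770.5 (log2 difference 0.49 ± 0.09).

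Of 14 homing genes, 5 were higher and 5 lower (6 and 4 with TMM factors), beside 18.1% and 39.3% of all genes, so the lower count is near the background. Ccr9, the receptor for the gut chemokine CCL25, had the lowest log2 difference among genes called lower that averaged at least 50 CPM and did not overlap, at 39.7, 23.5, and 23.8 CPM against 114, 158, 92.1, 126, and 174 (log2 difference -2.20 ± 0.19, edgeR adjusted p = 1.66e-08), a 4.60-fold difference. Within cells of the naive class it was lower too (log2 difference -2.16, edgeR adjusted p = 1.06e-14), with a UMI in 2.76 to 5.31% of cells per library against 11.2 to 21.04%. Ccr2, a receptor for inflammatory chemokines, was higher at 20.2, 26.9, and 27.4 CPM against 4.25 to 9.62, and Itga1, the collagen-binding integrin α1, at 7.39, 7.48, and 6.26 against 0 to 0.954. Itga1 passed the count filter through the 1-week libraries alone, which set its direction, and of the 13 homing genes that passed in each group alone 4 were higher and 5 lower. Cxcr4, the CXCL12 receptor, was lower at 17.8, 15.98, and 23.8 CPM against 24.6 to 44.1.

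**Figure D5:**
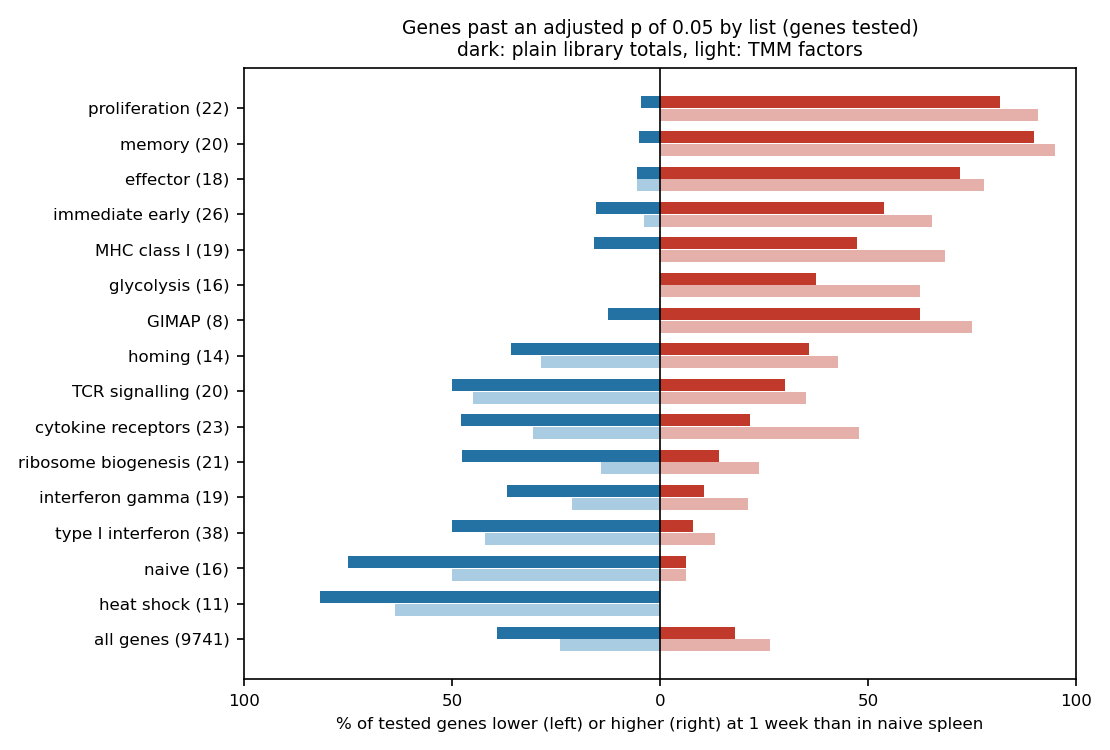
Percent of the tested genes of each list (number in brackets) that were lower (left, blue) or higher (right, red) at 1 week than in naive spleen at an adjusted p under 0.05, with plain library totals (dark bars) and with TMM factors (light bars). Among genes tested, which include some that passed the count filter through 1 group alone, proliferation, memory, and effector genes were mostly higher and heat shock genes mostly lower with both scalings, and 12 of 16 naive genes were lower with plain totals and 8 with TMM factors, beside 18.1% higher and 39.3% lower of all 9741 genes.

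Interferon response genes were not higher as a group. Of 38 type I interferon genes tested, 19 were lower and 3 higher, beside 39.3% and 18.1% of all genes (16 and 5 with TMM factors, beside 24.1% and 26.5%). Their median log2 difference was -0.43. Oasl1 and Oasl2 passed the count filter through the naive libraries alone, which set the direction of Oasl1, called lower. Of the 35 that passed in each group alone, 18 were lower and 3 higher. Slfn8, of the Schlafen family, was at 26.8, 32.3, and 27.9 CPM against 80.8, 80.3, 66.5, 94.9, and 68.4 (log2 difference -1.45 ± 0.12), and Herc6, a ubiquitin ligase gene, at 19.7, 20.7, and 30.4 against 49.0 to 55.3. Usp18, which removes ISG15 from proteins, was at 4.38, 3.06, and 7.34 CPM against 8.21 to 13.4, and Oasl1 was near the detection limit at 1.64, 0.34, and 1.07 against 1.82 to 4.75. Among 19 genes of the type II response, 2 were higher and 7 lower (4 and 4 with TMM factors), not above the shares over all genes. The GTPase gene Gbp8 was at 26.3, 26.9, and 28.3 CPM against 42.7 to 52.9 and Irf8 at 14.2, 10.9, and 13.8 against 4.26 to 8.28. Antigen presentation by MHC class I ran the other way, with 9 of 19 genes higher and 3 lower (13 and 0 with TMM factors), beside 18.1% and 39.3% of all genes. The immunoproteasome gene Psmb8 was at 849.9, 896, and 867 CPM against 474, 458, 451, 493.1, and 489 (log2 difference 0.88 ± 0.06, edgeR adjusted p = 2.43e-09), Psmb9 at 222, 223, and 199 against 110.2 to 129.8, and Psmb10 at 214, 225, and 202 against 122 to 153. H2-T23, which encodes the nonclassical molecule Qa-1 bound by NKG2A, was at 154, 172, and 164 CPM against 63.1 to 105.

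Immediate early genes follow receptor stimulation and also the stress of tissue dissociation. They were higher in 14 of 26 and lower in 4 (17 and 1 with TMM factors), beside 18.1% and 39.3% of all genes. Egr2, Egr3, and Nr4a3 passed the count filter through the naive libraries alone, which set the direction of Egr2, called lower. Of the 23 that passed in each group alone, 14 were higher and 3 lower. Fosb was at 254, 256, and 70.1 CPM against 21.9, 31.9, 40.9, 42.5, and 48.0 and Fos at 434, 338, and 103 against 44.3, 49.6, 86.3, 89.8, and 55.6 (log2 differences 2.36 ± 0.28 and 2.14 ± 0.29). In both, the third 1-week library was far below the other two though above the naive ones, the reverse of its place for the cell cycle. Dusp1, a MAP kinase phosphatase gene, was at 121, 97.9, and 61.0 CPM against 14.5 to 25.5, and Nr4a2, an orphan receptor gene, at 16.7, 13.6, and 10.2 against 2.01 to 5.86. Heat shock genes were lower in 9 of 11 and higher in 0, beside 39.3% and 18.1% of all genes (7 and 0 with TMM factors, beside 24.1% and 26.5%). Hspa1a and Hspa1b passed the count filter through the naive libraries alone, which set their direction. Of the 9 that passed in each group alone, 7 were lower and 0 higher, beside 40.5% and 18% of all 8639 such genes. Hspa1a (HSP70) had 0 UMIs in all 3 libraries at 1 week and 6.20, 4.86, 1.87, 4.25, and 7.54 CPM in naive spleen, at least 20.02-fold lower against a floor of 3 counts over the group. Its paralog Hspa1b had 1 UMI at 1 week against 266, a ratio of 168 (95% counting interval 29.9 to 6667), and reads of the near-identical pair may be split between them. Hsph1, a co-chaperone gene, was at 22.7, 22.4, and 39.5 CPM against 75.3, 72.7, 51.3, 70.7, and 128. The sources used here do not say whether the spleens were processed together, so handling and transplantation cannot be told apart for these stress genes. The same holds for every other gene and share compared between these groups.

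The other named lower genes came from no fixed list. Kmt2a, the histone H3 lysine 4 methyltransferase, was at 120.4, 116, and 138 CPM against 337, 379, 303, 394, and 371 (log2 difference -1.51 ± 0.09, edgeR adjusted p = 3.29e-10). Ash1l, another histone methyltransferase gene, was at 64.0, 67.7, and 66.7 CPM against 183 to 206, and Chd3, of the NuRD remodeling complex, at 123, 109.8, and 119.5 against 283 to 368. Golga4, a Golgi tether gene, was at 34.7, 37.1, and 37.2 CPM against 98.6 to 117. Mau2, needed to load cohesin, Ubn2, of a histone chaperone complex, and the transcription factor gene Zbtb20 had log2 differences of -1.44, -1.38, and -1.47, and Gm12840 of -1.84. The 12 lowest genes had a median of 39481.5 intronic bases, against 17561 for all tested genes with an annotation. All 12 remained lower with TMM factors and after the shift with intron length was taken out. These genes also stood lower than at 3 weeks, with Kmt2a at 266 to 350.2 CPM and Chd3 at 267 to 388 CPM there.

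Checkpoint and regulatory genes were few in UMIs. Of 7 checkpoint genes tested, 5 were higher and 2 lower (5 and 0 with TMM factors), beside 18.1% and 39.3% of all genes. Another 4 did not have the counts to be tested. Pdcd1, Lag3, and Entpd1, and of the regulatory genes Fgl2, Foxp3, and Klra6, passed the count filter through the 1-week libraries alone, so these counts are a description. Of 4 checkpoint genes that passed in each group alone, 2 were higher and 2 lower, and of 7 regulatory genes 5 were higher and 1 lower. Pdcd1 was at 4.65, 6.80, and 11.1 CPM at 1 week against 0.238, 0, 0.267, 0.448, and 0.838, from 99 and 7 UMIs (log2 difference 4.31 ± 0.46, edgeR adjusted p = 2.09e-07). Lag3 was at 10.1, 11.9, and 13.4 CPM against 0.715, 0, 0.534, 0, and 0.559, from 147 and 7 UMIs (log2 difference 4.92 ± 0.39). Ctla4 was at 27.1, 25.5, and 28.6 CPM against 2.51 to 4.54, and the ectonucleotidase gene Entpd1 (CD39) at 3.28, 2.72, and 3.04 against 0 to 1.22. Tox, a factor of exhausted T cells, had a log2 difference of -0.39, but was not past the test with TMM factors (edgeR adjusted p = 0.109) and at 0.13 with the intron shift taken out. Of 10 regulatory genes, 8 were higher and 1 lower (9 and 0 with TMM factors), beside the same shares of all genes. Fgl2, a secreted fibrinogen-like protein gene, was at 3.83, 6.12, and 9.84 CPM against 0.715, 1.22, 0.534, 0.224, and 0.279 (log2 difference 3.52 ± 0.43), from 87 and 11 UMIs. Foxp3 was at 3.83, 5.44, and 8.23 CPM against 0 to 0.838, with 76 and 6 UMIs (log2 difference 4.15 ± 0.49, or 4.77 without the highest naive library). The Ly49 receptor genes Klra7 and Klra6, which memory-like CD8+ T cells and NK cells both express, were at 23.3, 28.9, and 48.8 and 14.2, 20.4, and 24.9 CPM against 1.82 to 4.54 and 0.912 to 4.47. The summed markers of helper and regulatory T cells and of NK cells were also higher at 1 week, and their part in these values was not tested.

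Of 14 genes that the study names for states of CD8+ T cells in grafts or spleen, 7 were higher (Gzmb, Ifng, Pdcd1, Lag3, Fgl2, Il2rb, Klf2) and 7 lower (Tox, Prf1, Lef1, Satb1, Tcf7, Ccr7, Il7r) at 1 week, with 7 and 3 under TMM factors. Over all genes, 18.1% were higher and 39.3% lower. The study names Gzmb, Ifng, Pdcd1, Lag3, Tox, Fgl2, and Il2rb for recipient spleen, from samples that include these, and the other 7 for kidney grafts, so the list is not independent evidence of a direction. Gzmb, Ifng, Pdcd1, Lag3, and Fgl2 passed the count filter through the 1-week libraries alone.

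At 3 weeks, dividing cells made up 0.0782 ± 0.107% (SD, n = 5), 2 of 2320 cells. The cytotoxic share at 3 weeks was 4.95 ± 0.714%, below that at 1 week (exact permutation p = 0.0357, 0.0714 adjusted over the 6 lists, which misses the threshold), and the naive share 53.0 ± 4.35%. Without thinning the order turned, with cytotoxic shares of 20.3% at 1 week and 23.4% at 3 weeks (exact permutation p = 0.286), so no direction between these times is read from it. The memory share, by contrast, was 22.3 ± 1.74% at 3 weeks and its difference from 1 week did not pass the test (exact permutation p = 0.321), with 44.8% and 45.2% without thinning. Of 20 memory genes, 18 were higher than in naive spleen at 3 weeks, against the same 5 naive libraries, beside 4.96% of all genes.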

How the data were processed

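Viable CD45+ cells were profiled by 10x 3′ sequencing. The authors mapped reads with Cell Ranger (version not given in the sources used here; mm10 per the submitters' processing notes), filtered cells, called cell types, and deposited raw UMI counts per cell for each type. The naive CD8 barcodes all recur in the deposited naive CD45 matrix, whose B cells served as background. No doublet caller was run. UMI counts of kept cells were summed per library over the 16798 genes in both gene lists, of which 98.5% matched GENCODE M21, and divided by plain library totals to give CPM.

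Groups were compared with edgeR 4.0.16 (R 4.3.3; filterByExpr, quasi-likelihood test, Benjamini-Hochberg, threshold 0.05), without covariates. TMM factors, DESeq2 1.42.0, other cell rules, and leaving out each library were alternatives. On simulated data for 1 week against naive spleen (9676 genes, 200 changed), the test recovered 76% of 2-fold and 30% of 1.5-fold changes. The simulation gave all genes the same fixed dispersion, not estimated from these libraries, and no shift with intron length. These rates hold for that setting only. The named genes are the 12 highest and 12 lowest log2 differences among called genes that averaged 50 CPM or more over the 8 libraries and did not overlap, leaving aside genes of antigen receptors, ribosomal proteins, and mitochondria, and up to 4 leading genes per list. The members and lists were chosen with earlier results of these data known. Further genes (among them Top2a, Cdk1, Ccnb2, Eomes) were named after their values were seen. Shares were counted after thinning cells to 1000 UMIs (25 cells at 1 week and 0 naive cells were shallower) and compared by exact permutation tests over libraries (scipy 1.17.1). Clopper-Pearson intervals and zero limits (3 counts) cover counting error only.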

Additional observations from a re-analysis of the deposited data

Results flagged for a closer look

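The 24 named genes were also set against the 3-week libraries by edgeR. The genes had been chosen for large differences from naive spleen in the same 1-week libraries, and 48.3% of all 8991 genes differed between 1 and 3 weeks (15.2% higher and 33.1% lower at 1 week), so that the values are a description and their number is not a result. On the log2 scale, the cell cycle genes were higher at 1 week than at 3 weeks by 5.79 (Hist1h1b), 3.31 (Hist1h2ap), and 3.02 (Stmn1). Lgals3 was higher by 4.72, S100a4 by 3.82, S100a6 by 2.60, Gzma by 2.32, Lgals1 by 1.80, Itgb1 by 1.75, Gm42418 by 1.71, Fosb by 1.48, and Lars2 by 1.29. Among the genes lower at 1 week, the difference from 3 weeks was -1.72 for Gm12840, -1.57 for Gm26917, -1.47 for Zbtb20, -1.44 for Mau2, -1.39 for Chd3, -1.36 for Hsph1, -1.33 for Golga4, -1.30 for Kmt2a, Ccr9, and Ubn2, -1.21 for Ash1l, and -0.75 for Slfn8. The median of all genes in that comparison was -0.21, or -0.02 with TMM factors. Between 1 and 3 weeks, the share of dividing cells differed by 3.11 percentage points, of cytotoxic cells by 4.68 (-3.14 without thinning, exact permutation p = 0.286), and of naive-list cells by -16.4 (each exact permutation p = 0.0357), and none of these passes after adjustment over the 6 lists (0.0714).

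A single library stood apart in 4 of the 61 groups of values tested for it, where chance gives about 1 in 20. Only the naive and 3-week groups, with 5 libraries each, were tested, so the 1-week libraries were not checked in this way. Hist1h2ap was at 34.3 CPM in 1 naive library and at 18.2 to 21.2 in the other 4. The checkpoint list was met by 0.136% of cells (1 cell) in 1 naive library and by 0% in the others. At 3 weeks, 1 library held 3.71% cytotoxic-list cells, with 5.10% to 5.50% in the rest, and another had 46.3% of its matrix cells kept, with 37.5% to 38.4% in the rest.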

How the results depend on the processing

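Named genes held better than counts. For 124 genes under 22 settings (2534 values), 2464 kept their direction and call, 54 lost the call, and 16 changed sign, in 9 genes. The sign changed for Hist1h2ap without dividing cells (-0.26), for Tox (0.13), Lef1 (0.17), and Tcf7 (0.11) with the intron-length shift taken out, and for Tcf7 with TMM factors (0.00294) and DESeq2 (0.0044). Within naive-list cells it changed for Il2rb (-0.18), Lef1 (0.032), Tcf7 (0.035), Pgam1 (-0.024), Id2 (-0.16), and Dapl1 (0.20), within memory-list cells for Il2rb (-0.23) and Pgk1 (-0.0498), and without memory-list cells for Id2 (-0.21) and Dapl1 (0.088). These 3 settings and leaving out Gm42418 were chosen after seeing the data. Cells left out as dividing or memory-list cells were called without thinning, 210 and 1842 at 1 week and 21 and 1485 naive. The fits within memory-list or naive-list cells used thinned cells, so these sets differ.

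Higher genes numbered 1760, and 1019 without memory-list cells, 996 with cells thinned to 1000 UMIs, 310 in memory-list cells, and 398 in naive-list cells, where fewer genes were tested. Lower genes numbered 3824, and 2350 with TMM factors, 1882 with DESeq2, 2293 with the intron-length shift taken out, 2361 after thinning, 365 in memory-list cells, and 1255 in naive-list cells. Against 3 weeks, higher genes moved from 1363 to 2066 with TMM factors and 2197 with all matrix cells, and lower genes from 2977 to 1823 with TMM factors and 1387 with DESeq2. Why the scalings differ was not tested. Without thinning, the difference of the memory share was 9.62 points and of the cytotoxic share 0.586, and neither passed. The checkpoint difference was 0.0232 points at 500 UMIs, 0.0728 over all cells, -0.489 with 1 gene enough, and 0 with 3 genes asked for, against 0.168 as reported, and without thinning the shares were 1.85% and 0.223% (exact permutation p = 0.0357).

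Leaving out each library in turn gave 1570 to 1766 higher and 3344 to 3734 lower genes, and 1217 to 1379 and 2559 to 2873 against 3 weeks. The share differences ranged from 1.86 to 4.08 (dividing), -0.773 to 0.956 (interferon), 10.8 to 17.5 (memory), 5.69 to 7.38 (cytotoxic), -17.5 to -13.0 (naive), and 0.126 to 0.195 (checkpoint) points, and of kept cells from -59.3 to -54.9. With 7 libraries the smallest exact p is 0.0571 or 0.0952, so no share can pass. Without the third 1-week library, Mki67 was higher by 4.42, Top2a by 3.08, and Pclaf by 4.62 on the log2 scale, against 5.09, 3.71, and 5.41. No paired analysis was possible because the groups come from different mice and the labels give no numbers that pair their libraries. Genes with few UMIs, such as most checkpoint genes, are limited by depth.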

Other observations

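Genes of lymphocyte survival and metabolism that the account above leaves out were counted in the same way. Of 8 GIMAP genes, small GTPases that keep lymphocytes alive, 5 were higher at 1 week and 1 lower (6 and 0 with TMM factors), beside 18.1% and 39.3% of all genes. Gimap7 was at 128, 132, and 144 CPM against 76.1, 77.5, 72.1, 74.1, and 86.9 in naive spleen (log2 difference 0.80 ± 0.08, edgeR adjusted p = 9.95e-08), and Gimap5 at 161, 186, and 176 against 102 to 109, with no overlap in either. Within the memory class, 4 of 8 GIMAP genes were higher and 0 lower, beside 17.5% and 20.6% of all genes. Within the naive class, 0 were higher and 1 lower, beside 8.68% and 27.4%. Of 16 glycolysis genes, 6 were higher and 0 lower, beside 18.1% and 39.3% of all genes (10 and 0 with TMM factors, beside 26.5% and 24.1%). In the memory class 0 of 8 glycolysis genes tested were higher and in the naive class 1 of 12, with 0 lower in each. Tpi1 was at 32.6, 41.8, and 34.7 CPM against 17.9 to 23.8, and Gapdh at 415, 446, and 546 against 263 to 299.6. Genes of ribosome biogenesis were lower in 10 of 21 and higher in 3, near the shares over all genes, and with TMM factors 3 were lower and 5 higher. Eif5a, a translation factor gene, was at 384, 354, and 339.8 CPM against 216 to 250.3, and Gnl3, a nucleolar GTPase gene, at 103, 95.9, and 83.2 against 119.5 to 148.

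Receptors for cytokines were lower in 11 of 23 and higher in 5, near the shares over all genes, or 7 lower and 11 higher with TMM factors. Il15ra, called lower, passed the count filter through the naive libraries alone, and of the 21 that passed in each group alone 10 were lower and 5 higher. Il6st (gp130) was at 51.7, 42.8, and 39.2 CPM against 73.9 to 96.9, and the IL-27 and IL-21 receptor genes Il27ra and Il21r at 68.4, 80.6, and 60.5 and 41.6, 35.4, and 51.7 against 112 to 135 and 71.2 to 82.1. Of 20 genes of T cell receptor signaling, 10 were lower and 6 higher (9 and 7 with TMM factors), beside 39.3% and 18.1% of all genes. Themis, which tunes receptor signals in thymocytes, was at 104, 108, and 102 CPM against 196, 224, 202, 214, and 223 (log2 difference -1.02 ± 0.08), and Ptprc (CD45) at 835, 834, and 774 against 1237 to 1398. Cd3g, a chain of the receptor complex, was at 869, 902, and 693 CPM against 438, 410.1, 465, 492, and 510.5 (log2 difference 0.82 ± 0.09). Each of these named genes was separate between the groups.

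Among RNAs of other sources, Igkc was at 287, 482, and 226 CPM at 1 week against 24.0 to 78.8. Of 17 B cell markers, 7 were higher and 0 lower, beside 18.1% and 39.3% of all genes. Ebf1, 1 of the 7, passed the count filter through the 1-week libraries alone. Of the 12 that passed in each group alone, 6 were higher and 0 lower, beside 18% and 40.5% of all 8639 such genes. Of 15 myeloid, 7 NK cell, 7 helper and regulatory T cell, and 7 γδ T cell markers, 7, 3, 6, and 2 had the counts to be tested, and of 6 dendritic cell markers 0. Those tested were higher at 1 week except Icos, which did not pass the test, but 8 (Fcer1g, Tyrobp, S100a8, S100a9, Klrb1c, Klra9, Foxp3, Tcrg-C2) passed the count filter through the 1-week libraries alone, which set their direction, so the counts are not support. Trdc lost its call without the third 1-week library, at a log2 difference of 0.69 and an edgeR adjusted p of 0.0794. Of 3 red cell and platelet genes tested, 1 was higher and 2 lower, the latter passing the count filter through the naive libraries alone. The 1-week libraries held 3 UMIs of the hemoglobin gene Hbb-bs, all in the second library, and the naive ones 536, at 57.2, 75.1, 6.14, 3.36, and 3.07 CPM, so that 2 naive libraries held most. Its log2 difference was -6.67, and -9.85 without the second 1-week library, -5.85 without the third, and -6.00 without the second naive library. Of 20 kidney genes, 1 (Nphs1) had the counts to be tested, through the 1-week libraries alone, at 8.21, 8.499, and 6.44 CPM against 0.715 to 3.65.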
